A study of Mus musculus with 24 samples.

Results

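The 10 genes described here encode enzymes and a chaperone that modify, fold and cross-link collagen, and they were followed in mouse gastrocnemius, a calf muscle, after 8 days of hindlimb casting with or without the peptide MOTS-c. They were chosen by name, as lysyl oxidases (Lox, Loxl1, Loxl2 and Loxl3), prolyl 4-hydroxylase alpha subunits (P4ha1 and P4ha2), lysyl hydroxylases (Plod1, Plod2 and Plod3) and the collagen chaperone Serpinh1, out of 55487 genes in each table. All 10 passed the filter on low values (0.5 TPM or more in no fewer than 8 libraries), as did 14690 genes in all, and these were tested. TPM, the unit of the files, is a gene's share of a library corrected for transcript length.

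All 24 mice were C57BL/6J males, assigned at 10 weeks of age and labelled as 12 weeks old, with 8 mice and 8 libraries in each of 3 groups. The uncasted mice had free hindlimbs and received sterilized water by intraperitoneal injection, 2 injections a day for 8 days. The casted mice had both hindlimbs in casts for those 8 days and received the same water injections. The casted mice with MOTS-c had the same casts and received MOTS-c, a short peptide with its reading frame inside a mitochondrial ribosomal RNA, at 15 mg/kg/day on the same injection schedule. There was no uncasted group with MOTS-c, so the peptide was seen here only in casted muscle.

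Collagen chains are modified while they enter the endoplasmic reticulum. Prolyl 4-hydroxylase, built from a P4ha alpha subunit and the shared beta subunit P4hb, hydroxylates prolines and so makes the triple helix stable at body temperature, while the lysyl hydroxylases mark the lysines that later carry sugars and cross-links. Serpinh1, also called HSP47, holds the folded procollagen until it leaves for the Golgi, and outside the cell the copper-dependent lysyl oxidases oxidize lysines so that collagen and elastin fibres become covalently linked and stiff. In muscle, most fibrillar collagen is made by fibroblasts and fibro-adipogenic cells of the connective tissue sheaths.

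The 250 bases upstream of the RefSeq start site (GRCm38.p6) are shown for 4 of the genes that were lower in casted muscle on scaled TPM, since they were lower in the same comparison, P4ha1 and Plod1 on that scale alone. They lie at chr10:59323046-59323295 for P4ha1 and chr11:54100674-54100923 for P4ha2, both on the plus strand. The P4ha2 window lies inside the annotated span of the P4ha2 gene. For Plod1 the window is chr4:147936777-147937026 and for Serpinh1 chr7:99353240-99353489, both on the minus strand. Capitals mark matches, on either strand, to the hypoxia response core ACGTG or GCGTG and to the heat shock element core GAANNTTC or TTCNNGAA.
P4ha1: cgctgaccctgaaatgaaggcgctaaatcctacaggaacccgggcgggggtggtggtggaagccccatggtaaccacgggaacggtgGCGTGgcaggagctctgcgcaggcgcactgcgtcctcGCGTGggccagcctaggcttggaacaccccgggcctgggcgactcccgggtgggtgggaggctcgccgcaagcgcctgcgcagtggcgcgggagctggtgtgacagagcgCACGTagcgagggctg
P4ha2: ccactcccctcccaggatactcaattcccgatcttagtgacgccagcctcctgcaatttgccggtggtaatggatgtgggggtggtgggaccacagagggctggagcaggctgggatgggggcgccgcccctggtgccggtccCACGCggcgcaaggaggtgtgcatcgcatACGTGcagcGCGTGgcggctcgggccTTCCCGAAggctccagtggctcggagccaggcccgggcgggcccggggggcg
Plod1: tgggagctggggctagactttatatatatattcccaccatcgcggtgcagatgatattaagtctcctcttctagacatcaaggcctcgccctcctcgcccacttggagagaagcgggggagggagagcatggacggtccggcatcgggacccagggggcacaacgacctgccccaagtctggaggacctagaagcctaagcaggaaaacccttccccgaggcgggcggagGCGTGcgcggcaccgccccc
Serpinh1: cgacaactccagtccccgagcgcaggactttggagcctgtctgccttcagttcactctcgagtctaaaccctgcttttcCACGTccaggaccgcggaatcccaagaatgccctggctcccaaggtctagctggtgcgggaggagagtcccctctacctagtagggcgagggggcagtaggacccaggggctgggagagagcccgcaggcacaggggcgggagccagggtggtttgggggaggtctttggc
The hypoxia core was found 3 times in the P4ha1 window, 3 times in P4ha2, 1 time in Plod1 and 1 time in Serpinh1. It was also found 4 times in the window of Plod3, which did not pass the test with casting. So 5 of the 5 promoters at hand held it, against 38.6% of 32851 mouse promoter windows of the same length. The heat shock core was found in P4ha2 only, against 12.8% of all windows, and the AP-1 motif TGANTCA in none of the 5, against 6.75%. In P4ha2 the last matches to the hypoxia core and the heat shock core do not overlap. These windows are rich in G and C, from 55.6% in Plod3 to 70.0% in P4ha2, and a match is a description of letters and not of a bound site.

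Several facts of the libraries bear on the values. TPM have a fixed total, so depth is unknown. Libraries were therefore brought to a common scale (trimmed mean of the log ratios), with factors from 0.731 to 0.854 in the uncasted libraries, 0.997 to 1.24 in the casted ones and 0.891 to 1.21 with MOTS-c. Without scaling the median of all genes tested was 0.39 higher (log2) in casted than in uncasted libraries, and with it 0.006 higher. All directions below are relative to that middle of the distribution unless the deposited scale is named. The casted libraries were not alike: the main fibrillar collagen transcript Col1a1 measured 36.5 ± 23.1 scaled TPM (SD, n = 4) in casted replicates 1 to 4 and 8.96 ± 2.20 (n = 4) in replicates 5 to 8. In each group Col1a1 was lowest in replicates 6, 7 and 8, at 39.2 to 57.4 against 87.7 or more in the other uncasted libraries, 6.39 to 9.93 against 11.4 or more in the casted ones and 16.1 to 28.9 against 37 or more with MOTS-c. Several results are therefore also given with casted replicates 1 to 4 or 5 to 8 alone, or with the same replicate numbers in every group, the latter chosen after seeing the data. With MOTS-c, replicate 5 stood apart on the first principal component, the main axis of variation over the genes tested (50% of the variance). It was at -17.8, where the other MOTS-c libraries were at 13.7 to 29.6 and the uncasted ones at -40.9 to -39.7. Its scaling factor, 0.891, was the lowest of that group. The muscle label was met by its markers: 12 myofibre markers summed to 60527 scaled TPM or more in every library.

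With casting, Lox rose, and Loxl2, P4ha1, P4ha2, Plod1 and Serpinh1 fell, so that 1 gene was higher and 5 were lower of 10. Over all genes tested 56.5% passed the same threshold, 28.7% higher and 27.7% lower, so a call as such is common in this comparison. How many of all genes tested had no overlap between groups was not counted. Each lack of overlap given below therefore only describes the gene named. The median log2 difference of the 10 genes was -0.32, against 0.006 over all genes tested. On the deposited scale, 3 were higher (Lox, Loxl1 and Plod3) and 3 were lower (Loxl2, P4ha2 and Serpinh1), while Plod1 changed sign and P4ha1 did not pass. On that scale 62.2% of all genes tested were higher and 7.43% lower. Directions that held on both scales with a call on both were therefore those of Lox, Loxl2, P4ha2 and Serpinh1. With only casted replicates 1 to 4, 20.7% of all genes tested were higher with casting and 19.8% lower. With only 5 to 8, these shares were 28.5% and 27.7%. Counts of casting calls given below for those sets stand beside these shares.

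**Figure D1:**
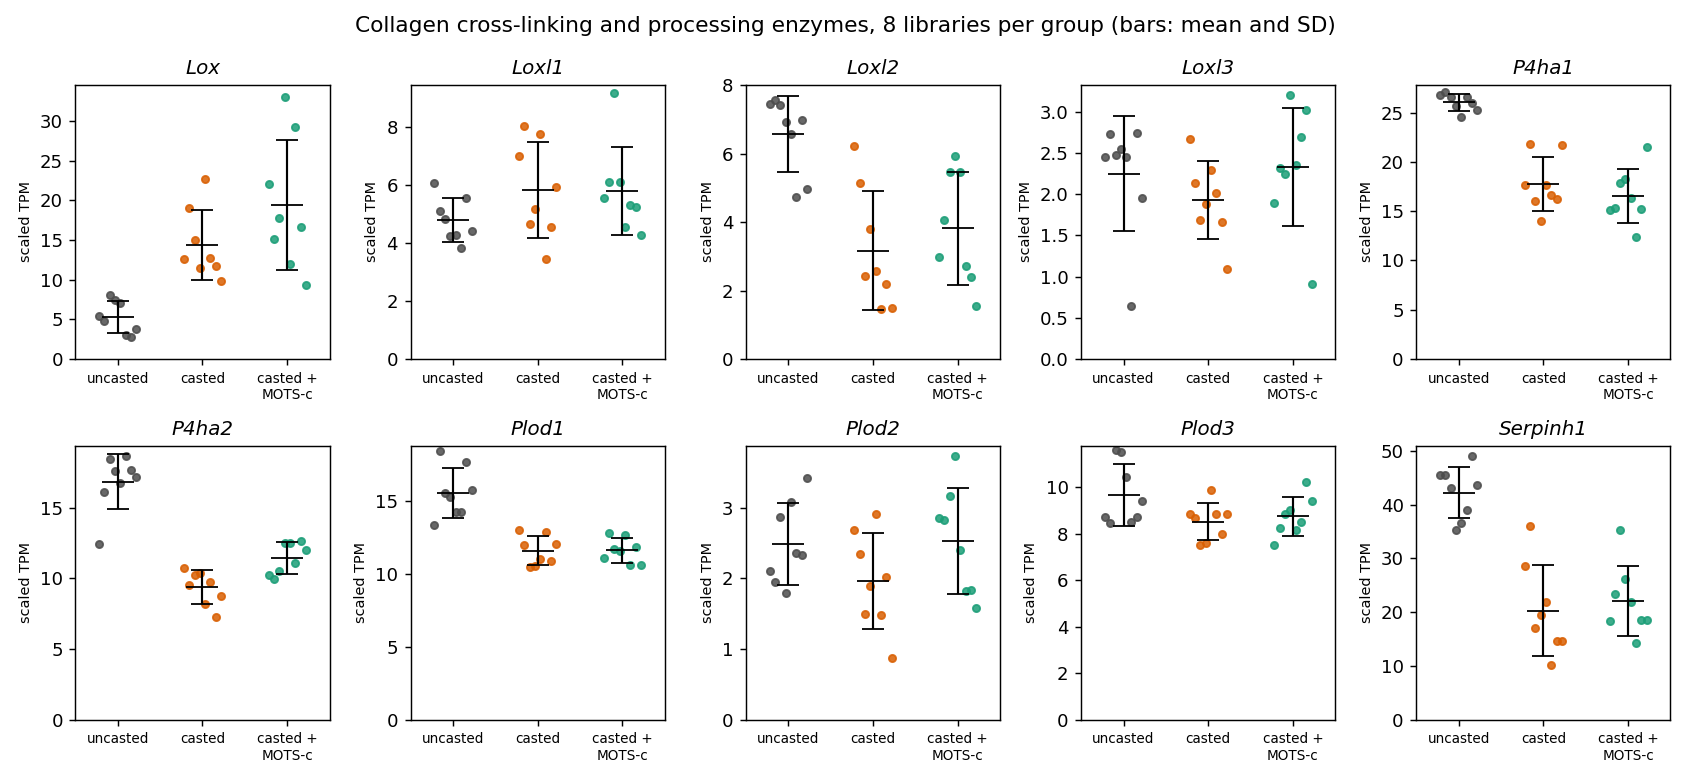
Scaled TPM of each of the 10 genes in every library, by group (vertical axes start at 0, each gene on its own scale); points are libraries and bars are the mean and SD over 8. On this scale the casted libraries of Lox (9.79 to 22.7) all lie above the uncasted ones (2.79 to 8.02), and those of P4ha1, P4ha2 and Plod1 all lie below. The share of all genes that separate in this way was not counted.

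Lox encodes the founding lysyl oxidase, which oxidizes lysines of fibrillar collagen and elastin. In the uncasted libraries it measured 2.79 at the lowest, 5.12 at the median and 8.02 at the highest in scaled TPM. In the casted libraries these values were 9.79, 12.7 and 22.7. Every casted library was above every uncasted one. The means were 5.29 ± 2.04 (SD, n = 8) and 14.4 ± 4.37 (n = 8), and their ratio was 2.72. The log2 difference of (scaled TPM + 1) was 1.31 ± 0.23 (SE, limma adjusted p = 2.65e-05). On that scale it was 2.49-fold, with a 95% interval of 1.80 to 3.44. The difference was 1.35 with only casted replicates 1 to 4 and 1.28 with only 5 to 8. On the deposited scale it was 1.76.

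Loxl2, a relative of Lox that also acts on the collagen of basement membranes, moved the other way. Its uncasted libraries ran from 4.73 over a median of 6.95 to 7.56 scaled TPM, and its casted libraries from 1.46 over 2.5 to 6.21. The groups overlapped, with 6 of 8 casted libraries below the lowest uncasted one. The means were 6.57 ± 1.12 and 3.16 ± 1.74 (SD, n = 8 each), a log2 difference of -0.95 ± 0.22 (limma adjusted p = 0.000623). The casted mean was 4.40 ± 1.64 in replicates 1 to 4 and 1.93 ± 0.552 in replicates 5 to 8 (SD, n = 4 each). When replicates 1 to 4 alone stood for the casted group, the difference was -0.53 and missed the threshold (limma adjusted p = 0.0768), and for 5 to 8 alone it was -1.38 (limma adjusted p = 1.62e-05). With replicates 1 to 4 of every group it was -0.68 and with 5 to 8 of every group -1.22, and both passed (limma adjusted p = 0.0240 and 0.00118).

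Loxl1, which is best known for elastic fibre upkeep, had means of 4.79 ± 0.752 uncasted and 5.83 ± 1.65 casted scaled TPM (SD, n = 8 each). The log2 difference of 0.21 ± 0.14 did not pass (limma adjusted p = 0.196), whereas on the deposited scale the difference was 0.64 and passed (limma adjusted p = 0.000997). Loxl3, the lowest of these 4 lysyl oxidases, had means of 2.25 ± 0.695 and 1.93 ± 0.474, a log2 difference of -0.13 ± 0.16 (limma adjusted p = 0.514) that was 0.21 on the deposited scale.

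Within the family, the make-up of the transcripts changed, and a share of summed TPM within a library does not depend on the scaling. Lox made up 27.4% ± 7.05 of the summed TPM of Lox, Loxl1, Loxl2 and Loxl3 in uncasted muscle (15.4% to 35.3%), 56.9% ± 7.18 in casted muscle (44.3% to 64.8%) and 60.5% ± 8.69 with MOTS-c (49.3% to 73.2%; SD, n = 8 each). Loxl2 made up 35.0% ± 2.81, 12.2% ± 5.26 and 12.4% ± 5.05. In uncasted muscle Loxl2 had the largest mean share of the 4 genes, and in both casted groups Lox had. Neither share overlapped between the uncasted and the casted libraries. Per Loxl2 transcript there were 0.800 ± 0.253 Lox transcripts in uncasted muscle and 5.56 ± 2.53 in casted muscle, with ranges of 0.399 to 1.08 and 2.03 to 8.82. The summed scaled TPM of the 4 genes was 18.9 ± 3.58, 25.3 ± 6.67 and 31.4 ± 9.91. Loxl4, the remaining lysyl oxidase of the mouse, is outside these sums and had means from 0.508 to 0.661 scaled TPM.

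**Figure D2:**
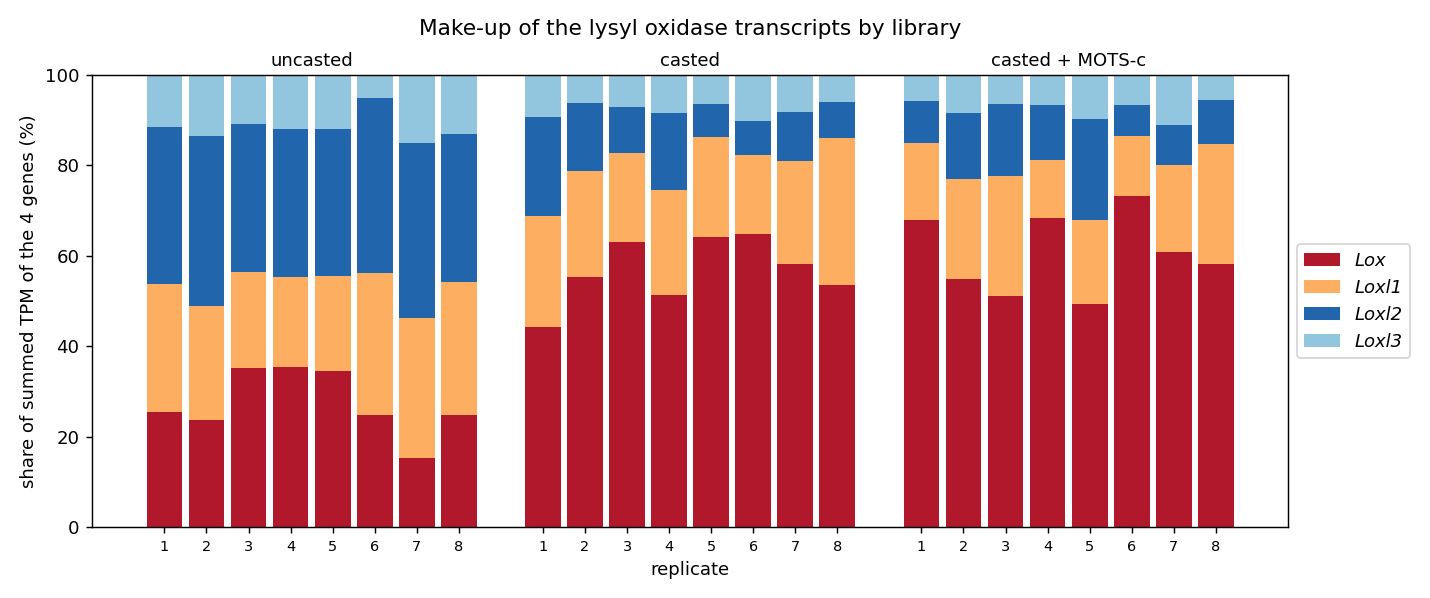
Share (%) of the summed TPM of Lox, Loxl1, Loxl2 and Loxl3 that each gene took in each of the 24 libraries, by group and replicate. Lox took 15.4% to 35.3% in uncasted libraries and 44.3% to 64.8% in casted ones, and Loxl2 took less in every casted library than in any uncasted one.

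P4ha1 and P4ha2 were lower in casted muscle on scaled TPM, P4ha2 also on the deposited scale and P4ha1 not, while the alpha subunit gene P4ha3, at most 0.89 TPM as deposited, did not reach the filter. P4ha1, the main catalytic subunit in most tissues, was even among the uncasted mice, at 24.6, 26.3 and 27.1 scaled TPM for the lowest, median and highest library, a coefficient of variation of 3.31%. In the casted mice it measured 14, 17.1 and 21.8. No casted library reached the lowest uncasted one. Means of 26.1 ± 0.862 and 17.7 ± 2.74 (SD, n = 8 each) gave a log2 difference of -0.54 ± 0.09 (limma adjusted p = 1.11e-05), which was -0.05 on the deposited scale (limma adjusted p = 0.706).

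P4ha2, the second catalytic subunit, ran from 12.5 over 17.4 to 18.7 scaled TPM in uncasted libraries and from 7.28 over 9.67 to 10.8 in casted ones. The groups did not overlap on this scale, but as deposited they did, at 10.3 to 15.3 TPM uncasted and 9.01 to 12.9 casted. The means were 16.9 ± 1.96 and 9.37 ± 1.2 (SD, n = 8 each), a log2 difference of -0.78 ± 0.08 (limma adjusted p = 2.02e-08) that was -0.31 on the deposited scale (limma adjusted p = 0.00123). It had the smallest p of the 10 genes with casting.

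The beta subunit went the opposite way. P4hb, which also works as a protein disulfide isomerase on many other proteins, rose from 126 ± 10.7 to 250.1 ± 38.7 scaled TPM (SD, n = 8 each), a log2 difference of 0.97 ± 0.10 (limma adjusted p = 2.24e-08). Every casted library lay above every uncasted one. The ratio of P4hb to the summed TPM of P4ha1 and P4ha2, taken within each library, was 2.94 ± 0.292 without casts, 9.36 ± 1.97 with casts and 7.78 ± 1.61 with casts and the peptide (SD, n = 8 each). Its ranges were 2.55 to 3.45 in uncasted and 5.73 to 12.4 in casted libraries, without overlap.

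Of the lysyl hydroxylases, only Plod1 passed the test on scaled TPM, and it changed sign on the deposited scale. Plod1, which hydroxylates lysines within the helix, ran from 13.3 over 15.4 to 18.4 scaled TPM uncasted and from 10.5 over 11.5 to 13 casted, without overlap. The means of 15.5 ± 1.72 and 11.6 ± 1.01 (SD, n = 8 each) gave a log2 difference of -0.39 ± 0.07 (limma adjusted p = 1.82e-05), against 0.09 on the deposited scale (limma adjusted p = 0.384). Plod2, the form that hydroxylates the telopeptides at the chain ends, had means of 2.49 ± 0.575 and 1.96 ± 0.676, a log2 difference of -0.25 ± 0.14 (limma adjusted p = 0.137). Plod3, which can also attach sugars to hydroxylysine, had means of 9.68 ± 1.33 and 8.53 ± 0.791, a log2 difference of -0.16 ± 0.07 (limma adjusted p = 0.0707). On the deposited scale Plod3 was 0.31 higher in casted muscle and passed (limma adjusted p = 0.00581). The difference of Plod3 passed, as a fall, when uncasted replicate 2 or 6 or casted replicate 5 was left out, with values of -0.18, -0.18 and -0.19.

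Serpinh1, the collagen-specific chaperone, was lower in casted muscle on both scales. Its uncasted libraries ran from 35.3 over 43.4 to 49.0 scaled TPM and its casted libraries from 10.1 over 18.2 to 36.1. Of the 8 casted libraries, 7 lay below the lowest uncasted one. The means were 42.2 ± 4.79 and 20.3 ± 8.44 (SD, n = 8 each), a log2 difference of -1.11 ± 0.19 (limma adjusted p = 1.79e-05) and -0.61 on the deposited scale (limma adjusted p = 0.00802). Like Loxl2, its casted mean differed between the sets of casted replicates, at 25.3 ± 8.76 in 1 to 4 and 15.3 ± 4.83 in 5 to 8 (SD, n = 4 each). The difference was -0.77 with the first set and -1.45 with the second, and passed with either (limma adjusted p = 0.00254 and 9.02e-07).

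In uncasted muscle the order of the mean levels per transcript length was Serpinh1, P4ha1, P4ha2, Plod1, Plod3, Loxl2, Lox, Loxl1, Plod2 and Loxl3, from 42.2 to 2.25 scaled TPM. The ranges over libraries of P4ha2 and Plod1, of Loxl2 and Lox, of Lox and Loxl1, and of Plod2 and Loxl3 overlapped, and the other neighbours in this order did not overlap. In casted muscle the order was Serpinh1, P4ha1, Lox, Plod1, P4ha2, Plod3, Loxl1, Loxl2, Plod2 and Loxl3, and the ranges of all neighbours overlapped. Lox thus stood at rank 7 in uncasted and rank 3 in casted muscle.

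In the GRCm38 build, Lox lies at chr18:52516067-52529867, Loxl1 at chr9:58287738-58313186, Loxl2 at chr14:69609068-69695834 and Loxl3 at chr6:83034173-83052562. P4ha1 lies at chr10:59323296-59373304 and P4ha2 at chr11:54100095-54131665. Plod1 lies at chr4:147909753-147936767, Plod2 at chr9:92542223-92608428 and Plod3 at chr5:136987019-136996648. Serpinh1 lies at chr7:99345376-99353239. The Loxl3 gene shares 1297 bases with Htra2 and Plod3 shares 1003 bases with Znhit1, in each case on the other strand, and Gm27177 runs opposite to 74219 bases of Loxl2. These overlaps were counted over whole genes with their introns, and the overlap of exons was not measured. The labels name no strand setting, so reads from any exon shared there cannot be told apart. How far this touches the values of Loxl3, Plod3 and Loxl2 is unknown. Mean scaled TPM in the uncasted group was 10.5 for Htra2, 41.3 for Znhit1 and 1.37 for Gm27177.

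With MOTS-c none of the 10 genes passed the test against water in casted mice (limma, 1 of 10 at an unadjusted p under 0.05). Over all genes 0.0204% passed, 3 of 14690 (0.0136% higher and 0.00681% lower), and 1986 had an unadjusted p under 0.05. The median log2 difference of the 10 genes was 0.17, against -0.005 over all genes tested. The gene with the smallest p was P4ha2, which ran from 9.97 over 11.6 to 12.6 scaled TPM with MOTS-c. All 8 of these libraries were above the mean of the casted group and 5 were above its highest library. The mean of 11.4 ± 1.11 (SD, n = 8) gave a log2 difference of 0.27 ± 0.08, with an unadjusted limma p of 0.00309 and an adjusted p of 0.196. Against only casted replicates 5 to 8 the difference was 0.39 and passed (limma adjusted p = 0.0163), and against only 1 to 4 it was 0.14 (limma adjusted p = 0.995). With the same replicates in every group it was 0.47 in 5 to 8 (limma adjusted p = 0.0411) and 0.07 in 1 to 4 (limma adjusted p = 0.931). The difference between these sets was not tested.

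For Lox the MOTS-c libraries ran from 9.37 over 17.2 to 33.1 scaled TPM, with a mean of 19.4 ± 8.24 (SD, n = 8). The groups overlapped, and the log2 difference of 0.35 had a 95% interval of -0.12 to 0.82 (limma adjusted p = 0.50). For Serpinh1 the mean with MOTS-c was 22 ± 6.5 and the difference 0.16, with an interval of -0.22 to 0.54. For Loxl2 the mean was 3.82 ± 1.65 and the difference 0.24, with an interval of -0.21 to 0.68. Against casted replicates 1 to 4 the differences of Loxl2 and Serpinh1 were -0.19 and -0.18. With the same replicates in every group they were 0.07 and 0.05 in 1 to 4 and 0.40 and 0.27 in 5 to 8, and none passed. For P4ha1 the mean was 16.5 ± 2.73 and the difference -0.10, with an interval of -0.28 to 0.08. The narrowest interval was that of Plod1, from -0.13 to 0.14 around 0.00. The intervals were -0.28 to 0.29 for Loxl1, -0.16 to 0.50 for Loxl3, -0.04 to 0.55 for Plod2 and -0.12 to 0.19 for Plod3.

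The casted mice with MOTS-c were also set against the uncasted mice. This comparison shares libraries with the others, so its values are given side by side and not as further support. Again 1 gene was higher and 5 were lower, where 50.7% of all genes passed, 26% higher and 24.7% lower. Lox was 1.67 ± 0.23 higher (limma adjusted p = 1.75e-06), without overlap. P4ha1 was at -0.64 and Plod1 at -0.39, each without overlap on scaled TPM, while P4ha2 at -0.52 and Loxl2 at -0.72 overlapped the uncasted range. Serpinh1 was at -0.95, and its ranges all but touched. Its highest MOTS-c library measured 35.3409 and its lowest uncasted one 35.3424 scaled TPM. As deposited the ranges of Serpinh1 overlapped, with MOTS-c replicate 3 at 42.87 TPM and the highest uncasted library at 41.87. On the deposited scale only Serpinh1 of these 5 passed as lower, at -0.52 (limma adjusted p = 0.0229), Plod1 was at 0.02, and Lox, Loxl1 and Plod3 passed as higher, at 2.04, 0.57 and 0.27. There, 60% of all genes were higher and 6.94% lower.

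**Figure D3:**
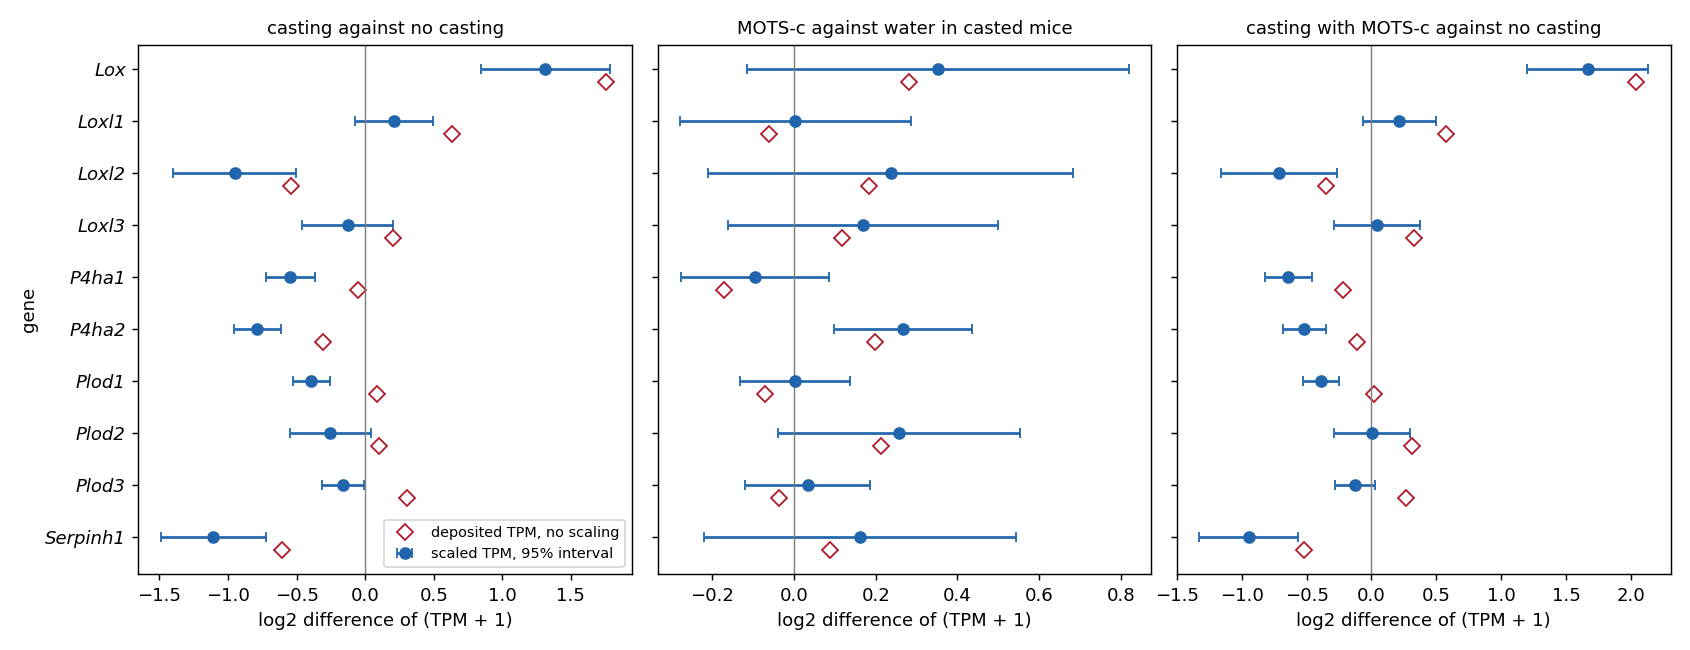
Log2 differences of (TPM + 1) for the 10 genes in the 3 comparisons, on horizontal axes that differ between panels; filled points with bars are scaled TPM with 95% intervals and open diamonds are the deposited TPM without scaling. With casting the diamonds of Plod1, Plod2, Plod3 and Loxl3 lie right of 0 where the points lie left of it, while Lox (1.31 and 1.76) stays right and Serpinh1 (-1.11 and -0.61) stays left on both scales.

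The collagens that these enzymes act on were lower in casted muscle. All 15 interstitial and network collagens listed fell on scaled TPM, with a median log2 difference of -1.08, and on the deposited scale 8 of 15 passed as lower and none as higher. Col1a1 had means of 89.3 ± 38.7 and 22.7 ± 21.1 scaled TPM (SD, n = 8 each), a log2 difference of -2.22 (limma adjusted p = 4.19e-05). Its partner chain Col1a2 was at -1.80, Col3a1 of type III collagen at -1.28, the basement membrane collagen gene Col15a1 at -1.48 and Col6a2 of the microfibrillar type VI collagen at -1.59, all passing. With casted replicates 1 to 4 alone, 10 of 15 passed, Col1a1 was at -1.37 and Col3a1, at -0.66, did not pass (limma adjusted p = 0.113), and with 5 to 8 alone all 15 passed, with Col1a1 at -3.08. With MOTS-c against water none of the 15 passed, and their median difference was 0.45. Against casted replicates 5 to 8 alone 11 of 15 passed as higher with MOTS-c, where 4.62% of all genes did. Against 1 to 4 alone none did, where 0.00681% of all genes did. Both fits set all MOTS-c libraries against only part of the casted ones. Mean Col1a1 was 8.96 scaled TPM in casted replicates 5 to 8 and 36.5 in 1 to 4. The 15 collagens were not counted with the same replicates in every group, so whether they rose with MOTS-c in such sets was not tested.

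Set against the mean of Col1a1, Col1a2 and Col3a1 in the same library, 9 of the 10 genes were higher in casted muscle. So were 97% of all genes tested, with 0.0885% lower and a median of 1.77, and the count of 9 is no result about these genes. The relative difference was 3.08 for Lox and 1.98 for Loxl1, above that median, and 1.64 for Loxl3, 1.61 for Plod3, 1.51 for Plod2, 1.37 for Plod1, 1.22 for P4ha1, 0.98 for P4ha2 and 0.82 for Loxl2, below it. Serpinh1, at 0.66, did not pass (limma adjusted p = 0.104). With only casted replicates 1 to 4, 4 of the 10 passed, where 67.4% of all genes did. With MOTS-c, 4 of 10 were lower relative to these collagens (Loxl1, P4ha1, Plod1 and Plod3), where 84.3% of all genes were, with a median of -0.95. That count was 0 with only casted replicates 1 to 4, where 0.0136% of all genes were lower, and 10 with only 5 to 8, where 99.4% were. With replicates 1 to 4 of every group it was 0 (0.0681% of all genes), and with 5 to 8 of every group 9 (94.1%).

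The number of Lox transcripts per 100 transcripts of Col1a1, Col1a2 and Col3a1 was 1.74 ± 0.463 without casts, 18.9 ± 10.8 with casts and 12.0 ± 6.19 with casts and the peptide (SD, n = 8 each). Its lowest casted library, at 4.80, lay above the highest uncasted one, at 2.49. For Loxl2 the same ratio was 2.24 ± 0.406, 3.22 ± 0.516 and 2.09 ± 0.298. For Serpinh1 it was 15.1 ± 5.32, 22.8 ± 7.24 and 13.3 ± 5.35. The ratios of Loxl2 and Serpinh1 overlapped between the uncasted and casted groups.

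With the deviations of the 3 groups pooled, Loxl2 and Serpinh1 tracked collagen from mouse to mouse and the prolyl hydroxylases did not. For Serpinh1 this differed by collagen chain in uncasted muscle, where it ran from 35.3 to 49.0 scaled TPM while Col1a1 ran from 39.2 to 147. Its highest uncasted library, replicate 7, had Col1a1 at 57.4 and Col1a2 at 76.6. That library also had the highest uncasted Col3a1, at 129.6. Its lowest uncasted library, replicate 4, had Col1a1 at 87.7 and Col3a1 at 81.6. Correlations within single groups were not computed. Over 24 libraries, with each group's mean removed, the Pearson correlation with the mean log2 level of Col1a1, Col1a2 and Col3a1 was 0.955 for Loxl2, 0.768 for Serpinh1, 0.629 for Loxl1, 0.565 for Loxl3, 0.557 for Plod2 and 0.337 for Lox. It was 0.237 for Plod1, 0.0717 for P4ha2, 0.00251 for P4ha1 and -0.00986 for Plod3. Values of the same library share its scaling and its tissue sample, so these correlations are descriptions.

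**Figure D4:**
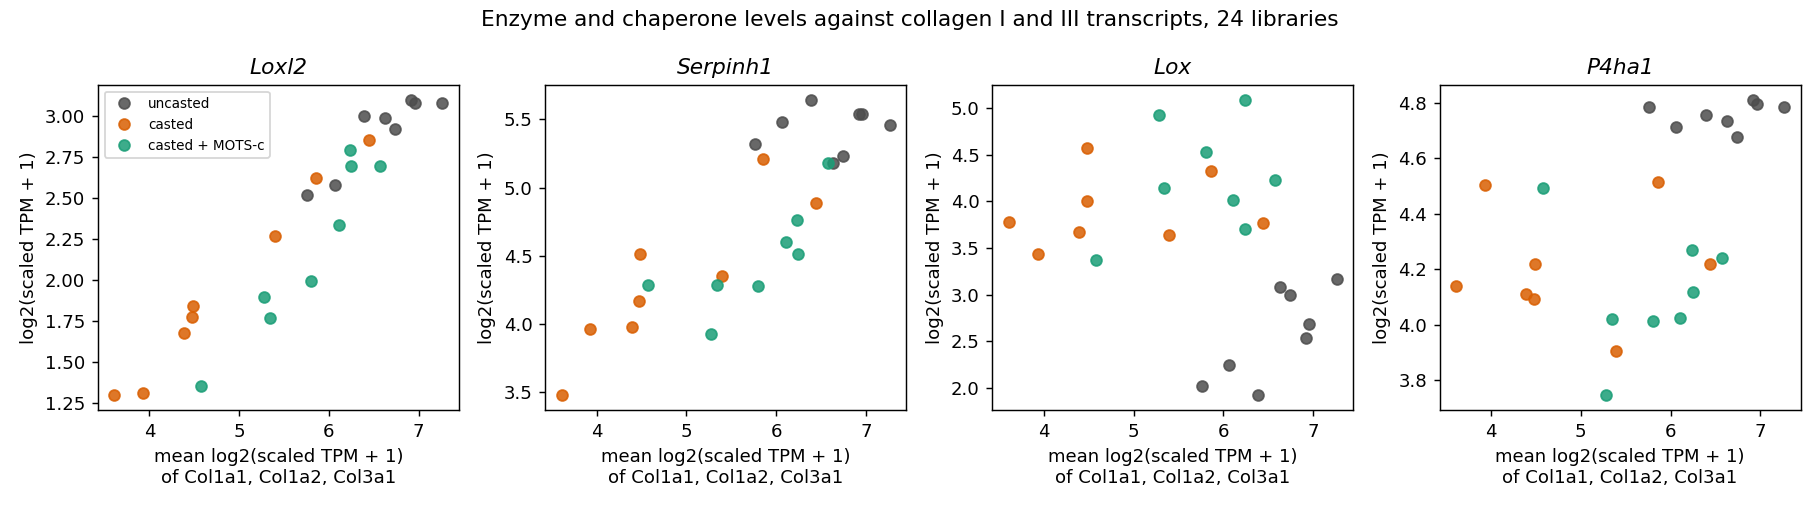
Log2(scaled TPM + 1) of Loxl2, Serpinh1, Lox and P4ha1 against the mean of the same value over Col1a1, Col1a2 and Col3a1, with 1 point per library coloured by group. Loxl2 follows collagen within the groups (Pearson 0.955), whereas P4ha1 does not (0.00251), and the uncasted libraries of Lox lie lowest.

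Among the 10 genes themselves, Loxl1 and Serpinh1 (Pearson 0.817) and Loxl2 and Serpinh1 (0.787) varied most alike within groups, and P4ha1 and P4ha2 did not vary alike (0.0142). Of 11212 genes with a mean of at least 1 scaled TPM, those whose deviations were most like Lox were Prg4, the lubricating proteoglycan of joints and tendon (Pearson 0.873, Spearman 0.859), Thbs1, thrombospondin 1 (0.797 and 0.831), and Angptl7 (0.795 and 0.768). With casting, Prg4 rose by 1.15 and Thbs1 by 1.11, and Angptl7 was at -0.21 and did not pass (limma adjusted p = 0.00442, 0.000600 and 0.708). For Loxl2 they were the fibronectin gene Fn1 (0.955), C1qtnf6 (0.937) and the collagen gene Col5a2 (0.933). For Serpinh1 they were the tropomyosin gene Tpm4 (0.960), the tubulin gene Tuba1a (0.915) and Pcolce, an enhancer of procollagen cleavage (0.894). For Loxl1 they were Lcp1, a leukocyte actin bundler (0.883), the macrophage mannose receptor gene Mrc1 (0.852) and Kdelr3 (0.845). The highest for P4ha1 was Chordc1, a cochaperone of HSP90 (0.852, with a Spearman value of 0.577), for Plod2 Layn (0.846), for Plod1 Thumpd2 (0.761), for Loxl3 Fbln5 (0.744, with a Spearman value of only 0.449), for Plod3 Gosr1 (0.739) and for P4ha2 Dpf2 (0.729).

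The other collagen-processing genes were also divided. Of 26 listed, 22 were tested, of which 5 were higher and 11 lower with casting on scaled TPM (8 higher and 3 lower as deposited), with a median of -0.25. The 5 that rose were P4hb, Tmem38b (0.63), Colgalt1 (0.32), a galactosyltransferase acting on hydroxylysine, and the procollagen export genes Mia2 and Mia3. Bmp1, the proteinase that cleaves the C-propeptide of procollagen and also activates Lox, fell from 9.78 ± 1.36 to 5.0 ± 1.5 scaled TPM (SD, n = 8 each), a log2 difference of -0.87 (limma adjusted p = 1.65e-06), without overlap. On the deposited scale the difference was -0.42 and the groups overlapped, at 6.31 to 10.3 TPM uncasted and 4.18 to 9.23 casted. P3h3, which partners Plod1 in lysyl hydroxylation, fell by 0.67 on the log2 scale. Of the prolyl 3-hydroxylase complex, Crtap was at -0.42 and passed, and P3h1 was at 0.19 and did not. With casted replicates 1 to 4 alone, 2 of 22 passed as higher and 3 as lower, and with 5 to 8 alone 6 and 12. None of the 22 passed with MOTS-c against all casted libraries or against 1 to 4 alone. Against 5 to 8 alone, 5 passed as higher with MOTS-c and 1 as lower, where 4.62% and 5.71% of all genes did. These 22 were not counted with the same replicates in every group.

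**Figure D5:**
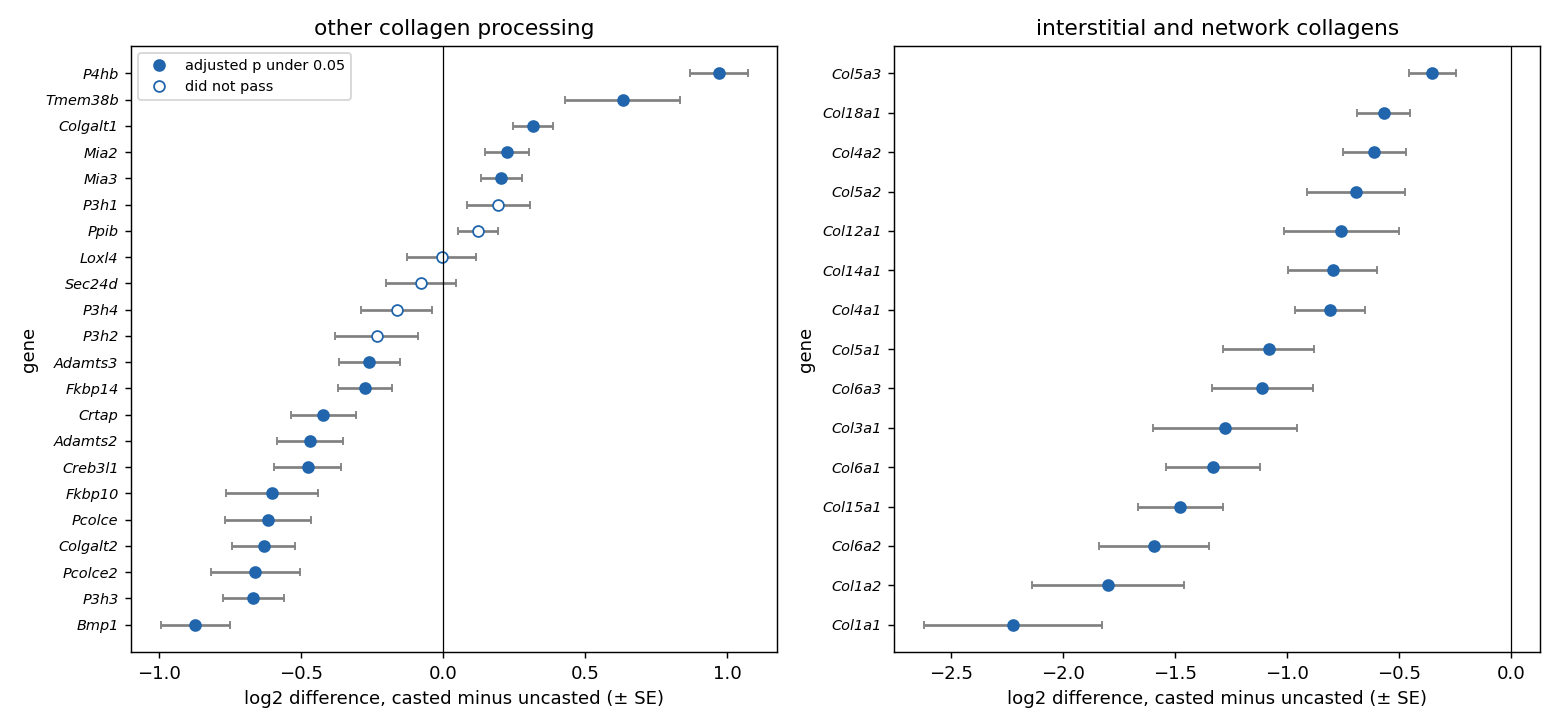
Log2 differences (casted minus uncasted, ± SE, scaled TPM) of 22 other collagen-processing genes and 15 collagens; filled points passed an adjusted p of 0.05. P4hb stands highest at 0.97 and Bmp1 lowest at -0.87 on the left, and all 15 collagens lie below 0 on the right.

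Of 14 tested lysyl oxidase partners and elastic fibre genes, 1 rose and 8 fell on scaled TPM, against 2 higher and 0 lower without scaling, and 2 and 1 with only casted replicates 1 to 4. The copper pump gene Atp7a, which supplies copper to secreted enzymes including the lysyl oxidases, rose by 0.50 (limma adjusted p = 0.000309), and the copper importer gene Slc31a1 was at -0.32 and the microfibril gene Mfap4 at -1.06 (both passed, and neither on the deposited scale, where Slc31a1 was at 0.13). TGF-beta is a known inducer of Lox. Of 14 genes of its ligands, receptors and targets, 7 rose and 0 fell, against 12 and 0 without scaling, where 62.2% of all genes were higher. With casted replicates 1 to 4 alone 4 rose and 0 fell, and with 5 to 8 alone 6 rose and 1 fell. The rises on scaled TPM were led by Ccn1, a secreted matricellular protein gene, at 1.68 and the receptor gene Tgfbr1 at 1.38, while the ligand gene Tgfb1 was at -0.26, or 0.16 on the deposited scale, and did not pass (limma adjusted p = 0.113).

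Hypoxia-inducible factor is a known activator of Lox, P4ha1, P4ha2 and Plod2. Of 22 hypoxia-responsive genes, 9 rose and 10 fell with casting, against 12 and 4 without scaling, with a median of 0.003. Hif1a rose by 0.46, the peptide hormone gene Adm by 1.07 and the demethylase gene Kdm3a by 0.72, and the glycolytic genes Ldha and Pgk1 fell by 1.81 and 1.28 on the log2 scale, also on the deposited scale. Of 16 endoplasmic reticulum folding and heat shock genes, 7 rose and 1 fell, against 12 and 0 without scaling and 3 and 0 with only casted replicates 1 to 4. Canx rose by 0.86, Hsp90b1 by 0.67 and Hspa5 by 0.34, and the heat shock cochaperone gene Dnajb1 was at -0.41, a fall that did not pass on the deposited scale. Hspa1a, whose reads a near-identical copy can share, was at -0.40 and did not pass (limma adjusted p = 0.134). None of these genes passed with MOTS-c against all casted libraries. Against casted replicates 5 to 8 alone, 2 of the 22 hypoxia-responsive genes passed as higher and 2 as lower. Of the 16 folding and heat shock genes, 0 and 2 did. Of all genes, 4.62% were higher there and 5.71% lower.

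Markers of other cell types moved in the same comparison. In whole muscle, fewer cells of a type and less RNA per cell cannot be told apart. Of 14 fibroblast and fibro-adipogenic markers, 8 fell and 0 rose on scaled TPM (3 fell and 4 rose without scaling, and 5 and 0 with only casted replicates 1 to 4), and their summed level ran from 1070 to 1438 in uncasted and from 674 to 1454 in casted libraries. The gene Gsn alone had a mean of 511 in a mean sum of 1228 uncasted, and of 415 in 1015 casted, so this sum leans on 1 gene. Of 10 tendon markers, 6 fell and 0 rose (4 fell and 1 rose without scaling, 2 and 1 with casted replicates 1 to 4 alone, and 8 and 0 with 5 to 8 alone), and their sum ran from 67.9 to 269.8 and from 24 to 179.9. Of 10 endothelial markers, 9 fell and 1 rose (2 and 2 on the deposited scale, and 6 and 1 with casted replicates 1 to 4 alone), with sums of 137 to 207 and 109 to 153. Of 11 macrophage markers, 8 rose and 1 fell (4 and 1 with only casted replicates 5 to 8), and the sum of 12 listed ran from 96.1 to 131 and from 117 to 284, and from 149 to 366 with MOTS-c. Of 12 myofibre markers, 9 fell and 2 rose (5 and 3 without scaling), and their sum ran from 125350 to 142850 in uncasted and from 60527 to 91357 in casted libraries. No marker of these lists was at 0 in all libraries. The part of these shifts in the results on Lox, Loxl2, Serpinh1 and the hydroxylases was not tested.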

How the data were processed

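RNA from 24 gastrocnemius muscles, 1 library per mouse, was purified by TRIzol and column and made into poly-adenylated RNA libraries, per the labels' protocols. The deposited values are TPM, in 1 table of 55487 Ensembl genes per library. The authors' tools were STAR, RSEM, FastQC and DESeq2 on build GRCm38.p6, per the submitters' processing notes, which name no version. Counts were not used here, so depth is unknown.

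TPM were scaled by an unweighted trimmed mean of log ratios (trimmed at each end by 30% on the ratios and by 5% on the mean levels). The scaling was computed on the genes tested. That form was chosen after the data were seen: several reference libraries and gene sets were compared by the numbers of genes called, and the form that gave the same numbers as earlier results of these data was kept. The effect of that choice is given with the other alternatives. Genes reaching 0.5 TPM in 8 or more libraries went into limma 3.58.1 in R 4.3.3, with a mean-variance trend, on log2(scaled TPM + 1), a scale that understates the change of low genes. All libraries entered 1 fit of 3 group means, with two-sided p-values under Benjamini-Hochberg adjustment over all genes, with a threshold of 0.05. The script was tested on simulated data. P-values measure the spread between these mice. The members, lists and tests were chosen with earlier results of these data known. Besides the members, the 2 genes of smallest p that rose and the 2 that fell in each list were named, with Col1a1, Col1a2, Col3a1, P4hb, Bmp1, Tgfb1, Hif1a, Hspa5 and Hspa1a. Tmem38b, Mia2, Mia3, Crtap, P3h1 and Loxl4 were named after their values were seen. For likeness, the 3 genes of highest Pearson correlation with each member were taken.

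Symbols and coordinates come from GENCODE M21 (GRCm38), with 55141 identifiers matched. Promoter sequences come from RefSeq (GRCm38.p6) and were found for 5 of the 10 genes; the Plod3 sequence and those of the other members are not printed. Equal values in any pair of libraries made up at most 1.34% of genes tested. Alternatives were no scaling, median-of-ratios scaling, scaling on all genes, a pseudocount of 0.1, other filters, fits of 2 groups, a replicate block, array weights, sets of casted libraries, the same sets of replicates in every group, another collagen reference and leaving out each library.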

Additional observations from a re-analysis of the deposited data

Results flagged for a closer look

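Of 30 combinations of gene and group, 3 held a library that stood apart from the other 7 by the gap to its nearest neighbour as a share of the range (Dixon's 95% limit for 8 values), where chance flags about 1 in 20. For Loxl1, replicate 3 of the casted mice with MOTS-c measured 9.18 scaled TPM and the others 4.28 to 6.13 (a ratio of 0.622). For Loxl3, uncasted replicate 6 measured 0.640 and the others 1.96 to 2.74 (0.627). For P4ha2, uncasted replicate 1 measured 12.5 and the others 16.1 to 18.7 (0.587). Leaving out these libraries changed no call of Loxl1, Loxl3 or P4ha2 in the comparisons of scaled TPM between groups, but it turned the sign of Loxl1 with MOTS-c (-0.0837) and of Loxl3 for casting with MOTS-c (-0.0938), neither of which had passed.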

How the results depend on the processing

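TPM give no depth, so no counting error can be given, and direction rests on the scaling. On the deposited scale, casting gave 3 members higher and 3 lower, and 9132 genes higher and 1091 lower. Casting with MOTS-c gave 3 and 1 members and 8808 and 1019 genes. The sign turned with casting for Loxl3 (0.21), Plod1 (0.0889), Plod2 (0.0983) and Plod3 (0.31), with casting plus MOTS-c for Plod1 (0.0186) and Plod3 (0.27), and with MOTS-c for Loxl1 (-0.0616), Plod1 (-0.0702) and Plod3 (-0.0375); 5 genes were lower with MOTS-c. Scaling on all genes, added after seeing the data, gave 4526 genes higher and 3816 lower with casting and 1 and 5 members. It turned the MOTS-c values of Loxl1 (-0.00992) and Plod1 (-0.0117), and 2 genes were lower with MOTS-c. There were 48 scalings with each library as reference, on tested or all genes. The casting count of members was 1 higher and 5 lower in 42 and 6 lower in the others. Of all genes, 3993 to 4924 were higher and 3510 to 4321 lower, and Lox ran from 1.29 to 1.38.

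The number of genes called with MOTS-c, 2 higher and 1 lower, was 0 and 0 with a pseudocount of 0.1, no filter or only the 2 groups, 1 and 0 with a filter of 1 TPM, 25 and 10 with array weights, 1 higher with casted replicates 1 to 4, and 678 and 839 with 5 to 8, where 1 member (P4ha2) passed. With replicates 1 to 4 the MOTS-c sign turned for Loxl1 (-0.0894), Loxl2 (-0.19) and Serpinh1 (-0.18), and with 5 to 8 for Plod1 (-0.00999) and Plod3 (-0.0232). For casting with MOTS-c, Plod2 turned with median-of-ratios scaling (-0.000482) and a pseudocount of 0.1 (-0.000157).

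Relative to collagen, the mean of 15 collagens gave 114 genes lower with casting and Serpinh1 at -0.00845, and with MOTS-c 0 genes higher, 6 lower and 0 members lower. Casted replicates 1 to 4 gave 4 members higher and 20 genes lower with casting, and with MOTS-c 0 members and 2 genes lower and Lox at 0.0894. Casted replicates 5 to 8 gave 6 genes higher and 10 members lower with MOTS-c.

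The same replicates in every group, added after seeing the data, gave 1 member higher and 5 lower with casting in both sets. Of all genes, 19.3% were higher and 18.1% lower in replicates 1 to 4, and 24% and 23.2% in 5 to 8. Replicates 1 to 4 gave 2657 genes lower with casting, and 0 and 0 genes with MOTS-c. For casting with MOTS-c they gave 2 members higher (Lox and Plod2), where 19.9% of all genes were higher, and Loxl3 turned (-0.0690). Replicates 5 to 8 gave 86 and 33 genes and 1 member with MOTS-c, where Loxl1 (-0.0975) and Plod1 (-0.0316) turned, and 2255 and 2306 genes for casting with MOTS-c, where Plod2 turned (-0.38). Relative to collagen, MOTS-c gave 0 genes higher, 10 lower and 0 members lower in 1 to 4, and 8 genes higher and 9 members lower in 5 to 8.

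Same-numbered libraries deviated together (correlation over 0.1) in 1, 2 and 3 of 8 pairs. Such counts cannot decide whether the groups share a trend along the replicate numbers. The second principal component of the genes tested was lowest in replicate 8 of each group, at -9.33 uncasted, -24.8 casted and -10.4 with MOTS-c. Its highest values were 6.08 (replicate 1), 19.3 (replicate 1) and 21.7 (replicate 3). Col1a1 was lowest in replicates 6, 7 and 8 of each group. The main fit has no term for replicate number, and what same-numbered libraries share was not tested. The replicate block gave 13 and 5 genes with MOTS-c, and, relative to collagen, 5 higher and 10 members lower. With casting the block left 1 member higher and 5 lower, 4241 and 4134 genes.

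Leaving out each library, casting gave 4018 to 4265 genes higher and 3865 to 4144 lower, with 5 to 6 members lower. MOTS-c gave 0 to 41 higher and 0 to 22 lower, the most without casted replicate 1, and no member. Relative to collagen, MOTS-c gave 0 to 5 genes higher, 14 to 14399 lower and 0 to 10 members lower. Reversals in these runs were Loxl1 with MOTS-c (-0.0837 to 0.0670), Plod1 with MOTS-c (-0.0167 to 0.0251), and Loxl3 (-0.0938 to 0.151) and Plod2 (-0.0603 to 0.0651) with casting plus MOTS-c. The cause of these changes was not tested.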
